A study of Mus musculus with 5 samples.

Results

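H2-Q4, H2-Q6, H2-Q7, H2-T22, H2-T23 and H2-M3 are nonclassical class I genes of the mouse major histocompatibility complex (MHC). They were chosen by symbol, as 6 of the 31053 rows of the deposited gene lists, and all 6 had a row in each of the 5 libraries. Their unique molecular identifiers (UMIs, 1 per captured molecule) were summed per library and compared across cell lineages and between genotypes. The cells came from enzymatically digested, pooled mouse hearts, sorted as DRAQ5+DAPI- (nucleated and with an intact membrane) and loaded on the 10x Genomics 5-prime chemistry, which reads the first part of each transcript. Control hearts (libraries 1 and 2, 4 mice) were Ctla4+/+Pdcd1-/-, and disease hearts (libraries 3, 4 and 5, 10 mice) were Ctla4+/-Pdcd1-/-, which serves as a mouse model of myocarditis under immune checkpoint inhibitors. Both groups therefore lacked the inhibitory receptor PD-1, encoded by Pdcd1, and the disease group also had 1 intact copy of Ctla4 in place of 2. The labels give no age and no strain, and in some libraries they count the numeral of the deleted gene and of the dye upwards, which was not taken as a difference between libraries. Hearts were pooled, so libraries and not mice were the replicates, and p-values measure the spread between libraries.

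Classical class I molecules are heavy chains that bind beta-2 microglobulin and a peptide and show it to CD8 T cells. Nonclassical heavy chains have the same fold but vary less between individuals, are often made in smaller amounts, and have more specialised partners. H2-T23 encodes Qa-1, which presents leader peptides of other class I chains to an inhibitory receptor pair on natural killer and T cells, and H2-Q6 and H2-Q7 encode forms of Qa-2. H2-M3 presents peptides that start with N-formyl methionine, H2-T22 is a ligand for some gamma-delta T cell receptors, and H2-Q4 is a less studied chain of the Q region. In many tissues interferon-gamma raises class I transcription through interferon regulatory factors and through the coactivator NLRC5, which acts at a conserved promoter module.

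All 6 genes lie on chromosome 17 (mm10, the mouse build in the submitters' processing notes; positions from RefSeq GRCm38.p6, the same assembly). H2-Q4 occupies chr17:35379617-35384674, H2-Q6 chr17:35424850-35430055 and H2-Q7 chr17:35439140-35443773, all on the plus strand. H2-T23 (chr17:36029977-36032701) and H2-T22 (chr17:36037128-36042742) are neighbours on the minus strand, and H2-M3 (chr17:37270234-37274485) is on the plus strand. The classical genes H2-D1 (chr17:35263094-35267497, plus strand) and H2-K1 (chr17:33996012-34000619, minus strand) lie in the same region. The promoter stretches are printed to describe their letters, which were not compared with expression. Each stretch has 105 bases, 5′ to 3′ on the gene's own strand. It is cut so that the first match in capitals begins at the same base of every line. The stretches begin 126 (H2-M3) to 216 (H2-T22) bases upstream of the RefSeq start site. Capitals mark the interferon-response-like match and, where present, TGATGAC.
H2-Q4 (chr17:35379439-35379543): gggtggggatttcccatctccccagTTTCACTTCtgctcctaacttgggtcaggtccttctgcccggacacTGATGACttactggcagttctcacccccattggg
H2-Q6 (chr17:35424673-35424777): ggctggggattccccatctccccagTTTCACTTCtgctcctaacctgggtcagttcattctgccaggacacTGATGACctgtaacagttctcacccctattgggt
H2-Q7 (chr17:35439017-35439121): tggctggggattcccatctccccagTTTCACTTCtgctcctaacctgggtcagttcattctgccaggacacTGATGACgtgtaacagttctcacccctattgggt
H2-T22 (chr17:36042854-36042958): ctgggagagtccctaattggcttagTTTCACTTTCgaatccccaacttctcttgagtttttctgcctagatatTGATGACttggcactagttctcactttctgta
H2-T23 (chr17:36032746-36032850): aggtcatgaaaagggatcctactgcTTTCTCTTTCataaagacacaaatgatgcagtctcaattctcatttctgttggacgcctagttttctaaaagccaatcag
H2-M3 (chr17:37270108-37270212): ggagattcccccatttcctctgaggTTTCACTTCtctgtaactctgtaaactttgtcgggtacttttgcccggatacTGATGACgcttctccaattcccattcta
H2-D1 (chr17:35262919-35263023): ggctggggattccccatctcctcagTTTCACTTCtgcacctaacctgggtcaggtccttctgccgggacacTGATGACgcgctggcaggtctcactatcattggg
A pair of GAAA separated by any 2 bases, on the minus strand, was found in H2-T22 and H2-T23 and in 2.98% of 32851 RefSeq promoters (250 bases, both strands searched). A shorter string, GAAGTGAAA, was found in H2-Q4, H2-Q6, H2-Q7, H2-M3, H2-D1 and H2-K1 and in 0.402% of promoters. TGATGAC, letters like those of the X2 box of the conserved MHC promoter module, was in every member but H2-T23 and in 2.69% of promoters. GGGGATT followed by any base and CCC, a kappaB-like string that starts upstream of the interferon-like match, was in H2-Q4, H2-Q6, H2-D1 and H2-K1 and in 0.0731% of promoters. These strings were chosen after the sequences were read, they do not overlap each other in these genes, and a match describes letters and not a bound site.

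Similar sequences limit how well UMIs can be given to a single member. In GENCODE M21 transcripts, 45.6% of the 30-base stretches in the first 300 bases of H2-Q6 also occurred in another gene, and the shares were 43.2% for H2-Q7, 45.3% for H2-T22, 7.75% for H2-T23, 4.43% for H2-Q4 and 0% for H2-M3. H2-T22 shared its stretches with H2-T10 alone, which has no row in the deposited gene lists, H2-Q6 shared most with H2-Q5 (no row either) and H2-Q7, and H2-Q7 shared most with H2-Q5, Gm8909 and H2-Q6. At 90 bases the shares fell to 5.88% for H2-Q6 and 7.71% for H2-T22, with 0% for the other 4 members. How reads with several matches were counted is not given in the sources used here, so values of H2-Q6, H2-Q7 and H2-T22 are uncertain as values of single genes. The classical chains H2-K1 and H2-D1 shared 24.8% and 15.8% of their 30-base stretches with other genes, H2-Q4 among them.

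The libraries held 24991704 to 55053988 UMIs in 6465 to 11358 barcodes, and 5338 to 9158 cells per library were kept, of which 92.7 to 95.9% were assigned to 1 lineage by marker genes. Endothelial cells (2128 to 3180 per library), fibroblasts (1381 to 3120), macrophages (472 to 1432), T cells (93 to 2241) and B cells (123 to 420) reached 50 cells in every library and were tested. None of the members was used for the assignment. Disease replicate 4 stood apart in a list of 12 interferon-gamma response genes (Gbp2, Cxcl9, Ciita and others), with a mean of 8.24 log2 CPM over all cells (CPM: UMIs per 1000000 UMIs of the same cells). The other libraries had 7.18 (disease replicate 5), 6.75 (control replicate 1), 6.15 (disease replicate 3) and 6.10 (control replicate 2), and the highest and lowest were the same libraries in each of the 5 lineages. Control replicate 1 was thus above disease replicate 3 on this list in every lineage, against the order of the genotypes. Pdcd1 and Ctla4 UMIs were present in T cells of all libraries (71.5 to 1056 and 76.4 to 647 CPM). Such counts check neither allele, because 5-prime tags can lie outside a deleted or altered part.

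Levels are given as CPM of the same lineage, with the mean ± SD of 5 libraries, and are ordered among the 5 tested lineages alone. T cells had the highest H2-Q7 and H2-Q6 means, at 887 ± 318 and 531 ± 206 (n = 5), followed by endothelial cells at 405 ± 89.4 and 367 ± 63.4. H2-Q4 was highest in endothelial cells (471 ± 269) and second in T cells (324 ± 224). H2-T22 had the same lineages in front, with 377 ± 112 in endothelial cells and 309 ± 120 in T cells. H2-T23 was the most even member, with means between 342 ± 206 in fibroblasts and 569 ± 77.1 in endothelial cells. H2-M3 led in macrophages at 122 ± 24.5, above endothelial cells at 91.3 ± 25.9.

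**Figure D1:**
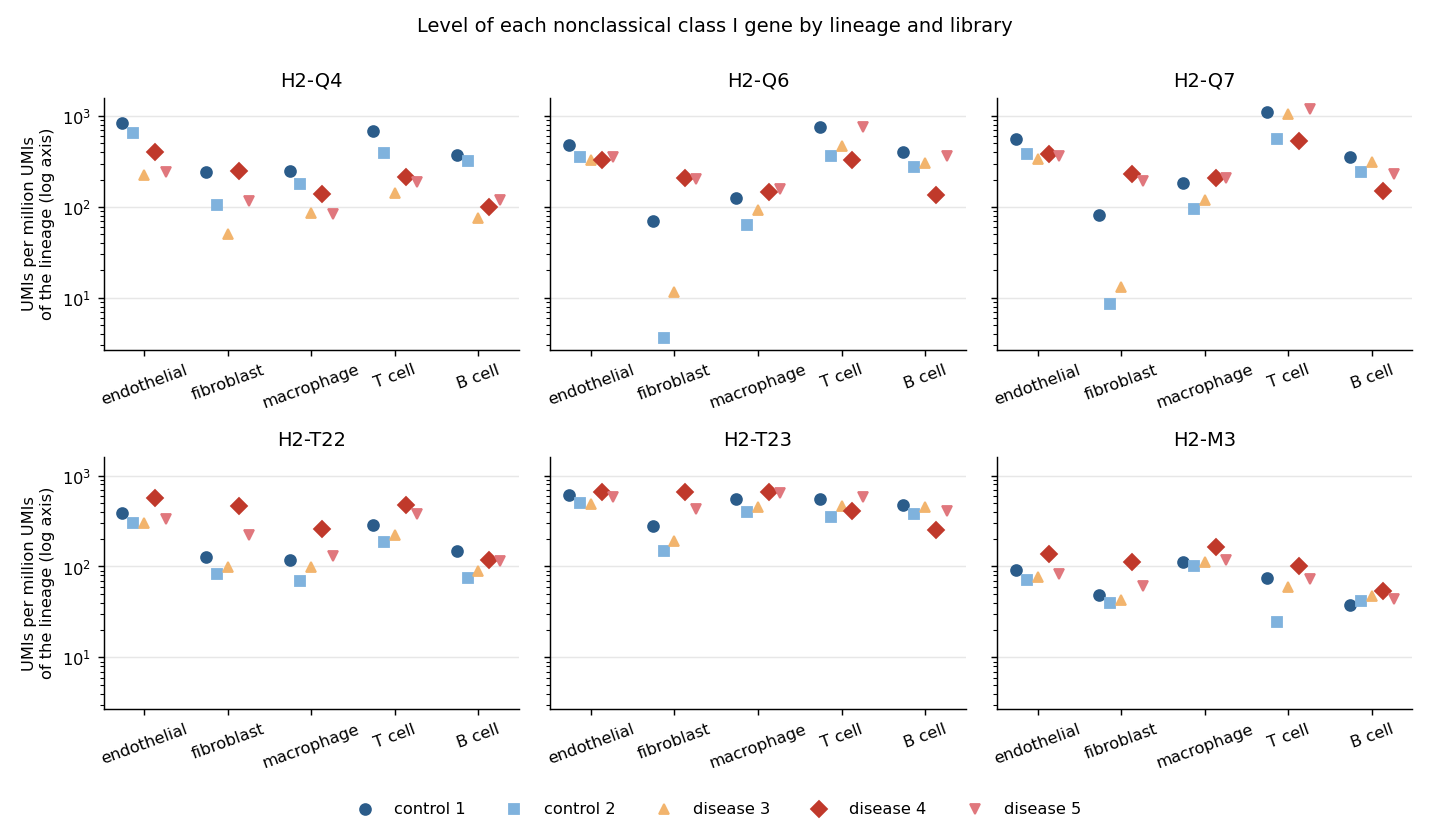
Each panel shows 1 member, with the lineages on the x axis and CPM on a log y axis, and 1 point per library. The H2-Q6 and H2-Q7 points in fibroblasts spread from 3.59 to 211 and from 8.57 to 232, while the H2-T23 points in macrophages stay between 398 and 656.

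Each lineage was tested against the mean of the other 4 in edgeR, with the library as a block. Of the 30 combinations of member and lineage, 19 passed an adjusted p of 0.05, 8 higher and 11 lower, where 69.5% of all 13628 genes passed for endothelial cells, 74.1% for fibroblasts, 62.9% for macrophages, 64.1% for T cells and 48.5% for B cells. H2-Q7 in T cells had the highest difference, a log2 value of 2.36 ± 0.33 (SE; edgeR adjusted p = 4.9e-07), and H2-Q6 in T cells had 1.72 ± 0.37 (edgeR adjusted p = 0.00018). T cells were also above the other lineages for H2-T22 (1.00 ± 0.14) and H2-Q4 (0.73 ± 0.17), and endothelial cells for H2-Q4 (0.88 ± 0.16) and H2-T22 (0.85 ± 0.14). Macrophages were above for H2-M3 (1.09 ± 0.10) and H2-T23 (0.46 ± 0.16, edgeR adjusted p = 0.016). Fibroblasts were below the other lineages for all 6 members, from -0.43 ± 0.15 for H2-T22 to -2.23 ± 0.43 for H2-Q7. Calls between lineages were about as common among all genes, whose shares above were not split by direction. B cells were below for H2-T22 (-0.80 ± 0.18) and H2-M3 (-0.60 ± 0.15), and macrophages for H2-Q4 (-0.61 ± 0.18), H2-Q6 (-1.08 ± 0.42) and H2-T22 (-0.62 ± 0.15).

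Ordered by mean log2 level, 7 of 24 neighbouring pairs of lineages differed in the same direction in all 5 libraries and by more than the SD of the within-library difference. For H2-Q4 these were endothelial above T cells (0.59 ± 0.26) and T cells above B cells (0.76 ± 0.31), while B cells, macrophages and fibroblasts did not separate. H2-Q7 kept T cells above endothelial cells by 1.07 ± 0.59 and endothelial above B cells by 0.69 ± 0.44. H2-M3 kept macrophages above endothelial cells (0.43 ± 0.13) and these above T cells (0.55 ± 0.53), and H2-T22 kept T cells above fibroblasts (0.85 ± 0.47). No neighbouring pair separated for H2-T23 or H2-Q6. How often neighbouring lineages separate in this way among all genes was not counted. Lineages with at least 20 cells in every library but under 50 in at least 1 (Schwann cells, mural cells and neutrophils) were described without a test. Schwann cells had 208 to 1124 CPM of H2-Q4, from 11 to 139 UMIs, and mural cells, the pericytes and smooth muscle of vessels, had 104 to 265. In neutrophils H2-M3 had 0 to 3 UMIs in each library.

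The question of the genotype comparison was whether members differed between disease and control hearts. Of the 6 members, H2-Q4 alone passed the test, as lower in disease in endothelial, T and B cells. None of these 3 calls held with the trend of GC content removed (edgeR adjusted p = 0.20, 0.20 and 0.080), and each was lost when certain single libraries were left out. H2-Q4 was not tested against the other members. In endothelial cells control replicates 1 and 2 had 845 and 645 CPM of H2-Q4, and disease replicates 3, 4 and 5 had 223, 400 and 242. All disease libraries were below both control libraries, as for 26.6% of genes, giving -1.45 ± 0.28 (SE) as the log2 fold change (edgeR adjusted p = 0.025). In T cells the values were 686 and 391.8 in control and 142, 211 and 187 in disease, again without overlap (20.1% of genes were lower and 15.4% higher in this way), with a log2 fold change of -1.59 ± 0.30 (edgeR adjusted p = 0.028). In B cells they were 372 and 321 in control and 74.7, 99.3 and 120 in disease, with a log2 fold change of -1.71 ± 0.23 (edgeR adjusted p = 0.0060). The edgeR test called 11.8% of all genes lower in disease in endothelial cells, 5.53% in T cells and 9.23% in B cells, while 0.31%, 0.0308% and 0.401% were called higher.

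Outside these lineages H2-Q4 did not pass the test. In macrophages it had 249 and 177 CPM in control and 85, 139 and 83.6 in disease. The groups did not overlap, as for 21.5% of genes lower and 17.5% higher in disease, but the log2 fold change of -0.93 ± 0.35 gave an edgeR adjusted p of 0.22 (6.63% of genes were called lower and 0.054% higher). Over all cells the values were 426 and 350 in control and 122, 225 and 156 in disease, with a log2 fold change of -1.15 ± 0.35 and an edgeR adjusted p of 0.18. In that fit 6.52% of genes were called lower and 0.0374% higher, 21.8% had disease libraries below both controls and 16.7% above both. In fibroblasts the groups overlapped, with 242 and 106 in control and 50.2, 246 and 118 in disease. Lineages too small to test were compared by overlap of scaled values alone, over genes that passed the low-count filter. H2-Q4 was lower in all disease libraries in Schwann cells, with 1124 and 705 CPM in control and 231, 576 and 208 in disease, as for 19.7% of genes there (13.1% were higher). In mural cells it had 265 and 233 against 104, 190 and 135, lower as for 20.4% of genes (15% were higher), and H2-Q7 was lower there too, with 83.9 and 131 against 59.6, 67.5 and 54.1. The other members that passed the filter in these lineages overlapped. In neutrophils H2-T23 alone passed the filter and overlapped, where 15.5% of genes were lower and 14.6% higher. Without disease replicate 4 the edgeR adjusted p of H2-Q4 was 0.020 over all cells and 0.022 in macrophages.

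The share of cells with at least 1 H2-Q4 UMI showed the same order of groups. Cells under 1000 UMIs were left out, and the rest were brought to 1000 UMIs by random thinning. Of these endothelial cells, 54.4 and 44.8% had an H2-Q4 UMI in control, against 21.2, 30.6 and 21.5% in disease. Among T cells the shares were 49.1 and 34.4% in control and 13.7, 19.7 and 16.1% in disease, and among B cells 28.3 and 25% against 7.59, 10.5 and 10.2%. Each of these 3 comparisons gave p = 0.1 in a two-sided exact permutation test, the smallest p that 10 splits of 5 libraries allow, as did H2-Q4 over all cells. Of the 36 combinations of member and fit, 4 others reached the same p. The 8 of 36 in all are no larger a share than among all genes detected in at least 1% of cells on average, of which 28% reached this p over all cells, 32.8% in endothelial cells, 33% in fibroblasts, 23.7% in macrophages, 23.1% in T cells and 23.2% in B cells. H2-Q6 (36.0 and 26.9% against 26.7, 24.2 and 25.9%) and H2-Q7 (40.4 and 28.2% against 26.2, 27.9 and 26.8%) had lower shares of endothelial cells in disease. H2-M3 had higher shares in disease in B cells (3.33 and 3.85% against 4.14, 4.26 and 4.08%), each inside the 95% Wilson interval of every other library, which covers counting error only. In T cells H2-M3 had 7.72 and 0% in control, the latter from 93 cells with a Wilson upper limit of 3.97%, against 9.16, 9.44 and 8.20% in disease. All 4 of these separations were lost without thinning, where the groups overlapped (exact permutation p = 0.3 for H2-Q6, 0.2 for H2-Q7, 0.6 for H2-M3 in T cells and 0.7 in B cells). With cells thinned to 500 UMIs, H2-Q7 in endothelial cells (p = 0.2, exact permutation) and H2-M3 in T cells (p = 0.5) also overlapped. H2-Q4 kept p = 0.1 (exact permutation) under both settings over all cells and in endothelial, T and B cells, and its mean shares of endothelial cells without thinning were 78.6% in control and 47.6% in disease.

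The lower level in disease went along with GC content across all genes. In endothelial cells 1.99% of genes in the lowest of 10 equal groups by GC of the first 300 bases and 27.7% in the highest group were called lower. H2-Q4 has 66.3% GC in that stretch. Of 1097 other genes within 2 percentage points of it, 24.5% were called lower in endothelial cells, with a median log2 fold change of -0.41 and quartiles of -1.0 and -0.00456. The share was 13.7% of 789 genes in T cells and 23% of 387 genes in B cells. With the GC trend removed, the log2 fold change of H2-Q4 was -0.80 in endothelial cells, -0.87 in T cells and -0.91 in B cells. Left-out libraries kept the direction, between -1.24 and -1.74 in endothelial cells, -1.17 and -1.90 in T cells and -1.56 and -1.87 in B cells. The endothelial call was lost without control replicate 1 or 2 or disease replicate 3 or 5, the T cell call without control replicate 1 or any disease replicate, and the B cell call without control replicate 2.

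**Figure D2:**
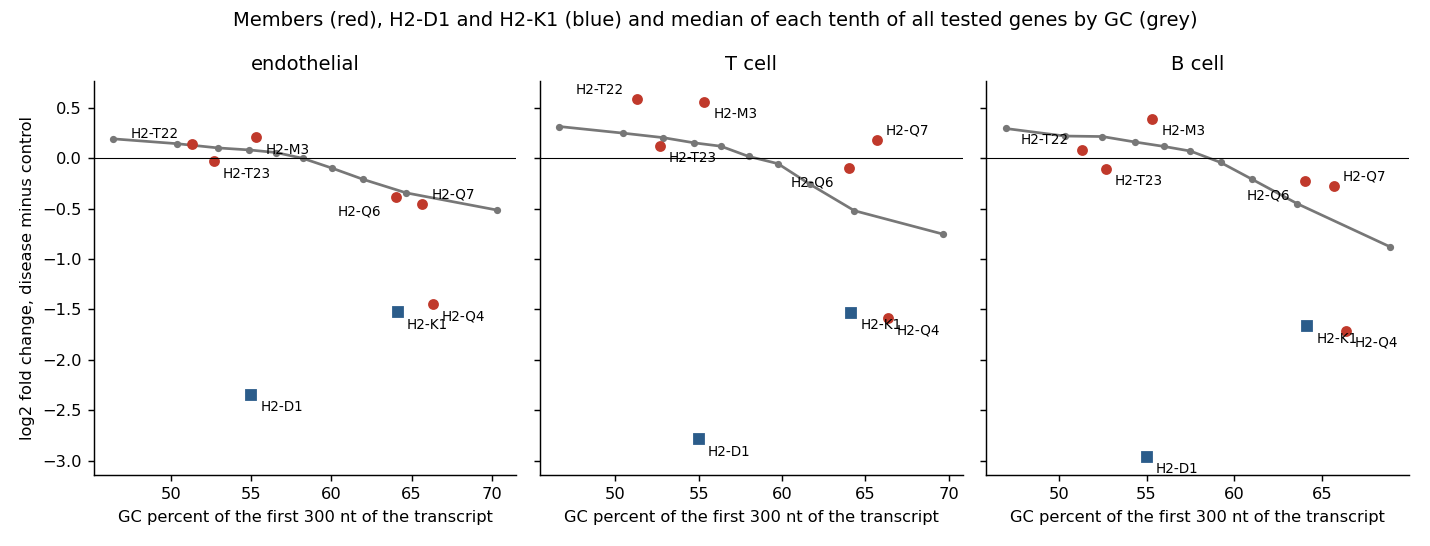
The x axis is the GC percent of the first 300 bases of the transcript and the y axis the log2 fold change, disease minus control. Red points are members, blue squares are H2-D1 and H2-K1, and the grey line joins the medians of 10 equal groups of tested genes. H2-Q4 lies below the line in endothelial, T and B cells, while H2-Q6 and H2-Q7, with 64.0 and 65.7% GC, lie near it in endothelial cells and above it in T and B cells.

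H2-Q6 and H2-Q7, the Qa-2 genes, were not called in any fit. In endothelial cells H2-Q6 had 477 and 356 CPM in control and 324, 325 and 353 in disease, with a log2 fold change of -0.39 ± 0.15 (edgeR adjusted p = 0.18). H2-Q7 had 562 and 382 against 336, 382 and 365, with -0.46 ± 0.18 (edgeR adjusted p = 0.19). In the scaled values of the fit both genes were lower in all disease libraries than in both controls, as for 26.6% of genes, while 20.1% of genes were higher in all of them. With the GC trend removed the log2 fold changes turned to 0.13 for H2-Q6 and 0.14 for H2-Q7. Without the scaling, H2-Q7 in disease replicate 4 was not below control replicate 2. With the UMIs of H2-Q4, H2-Q6 and H2-Q7 summed to 1 feature, the endothelial log2 fold change was -0.80 ± 0.16 (edgeR adjusted p = 0.032), and the sum of all 6 members gave -0.42 ± 0.19 (edgeR adjusted p = 0.25). In the other fits the sum of the 3 genes was not called, at -0.26 over all cells, 0.67 in fibroblasts, 0.0071 in macrophages, -0.23 in T cells and -0.61 in B cells. The endothelial call was lost with the GC trend removed (-0.21 ± 0.24, edgeR adjusted p = 0.59), a setting added after the data were seen, and without control replicate 1 (-0.56) or disease replicates 3 (-0.74) or 5 (-0.77).

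The Qa-2 genes varied between fibroblast libraries by more than 10-fold. H2-Q6 had 70.1 and 3.59 CPM in control and 11.7, 211 and 204 in disease. H2-Q7 had 81.1 and 8.57 in control and 13.1, 232 and 192 in disease. Disease replicates 4 and 5 were high, control replicate 2 and disease replicate 3 were low, and control replicate 1 lay between them. The groups therefore overlapped, and the log2 fold changes of 1.86 ± 1.52 and 1.62 ± 1.36 did not pass (edgeR adjusted p = 0.47 and 0.48; 12.7% of genes were called lower and 0.403% higher in fibroblasts). After thinning, 4.53 and 0.515% of control fibroblasts and 1.14, 12.7 and 9.30% of disease fibroblasts had an H2-Q6 UMI. The order followed the interferon-gamma reference list in fibroblasts, whose mean was 5.37 and 4.21 log2 CPM in control and 4.38, 7.90 and 6.4 in disease. H2-T22, H2-T23, H2-M3 and B2m had the same order of libraries in fibroblasts, and the share of all genes with it was not counted. Summed T cell markers in the same fibroblasts were 19.0 and 1.74 CPM in control and 2.78, 70.6 and 16.5 in disease, against 3152 to 7456 in T cells. All 6 of these markers were measured, 5 of them in every library, and their part in the H2-Q6 and H2-Q7 values was not tested.

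H2-T22, H2-T23 and H2-M3 were highest in disease replicate 4 in most lineages, and their scaled values overlapped between genotypes in every tested fit but 1. H2-T22 in fibroblasts had 128 and 83.3 CPM in control and 98.3, 460 and 221 in disease, with a log2 fold change of 1.24 ± 0.65 (edgeR adjusted p = 0.27). In macrophages H2-T22 had 118 and 68.8 against 98.4, 258 and 129, with 0.92 ± 0.52 (edgeR adjusted p = 0.38). Disease replicate 3 was below control replicate 1 in both. H2-T23 in fibroblasts had 280 and 150 in control and 192, 657 and 430 in disease, with 0.93 ± 0.56 (edgeR adjusted p = 0.33). In endothelial cells H2-T23 had 618 and 501 against 485, 667 and 575, with -0.03 ± 0.16 and both controls inside the disease range. That fit was H2-M3 in B cells, where all disease libraries were above both controls, at 38.2 and 41.5 in control and 47.3, 54.4 and 44.2 in disease. The disease libraries of 19.4% of genes were above both controls and those of 22.9% below in B cells, and the log2 fold change of 0.39 ± 0.26 did not pass (edgeR adjusted p = 0.42).

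**Figure D3:**
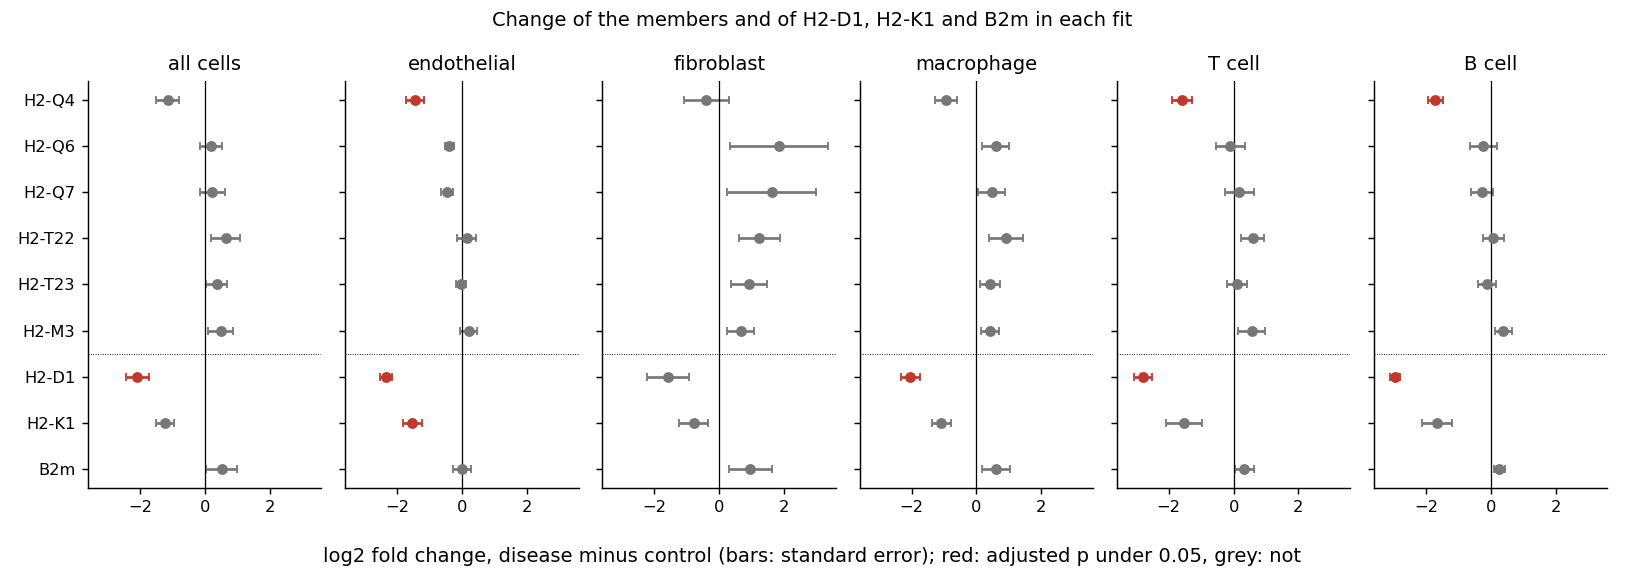
Each panel is 1 fit, with genes on the y axis and the log2 fold change, disease minus control, on the x axis; bars are standard errors and red marks an edgeR adjusted p under 0.05. H2-Q4 is red in endothelial, T and B cells, and the fibroblast panel has the widest bars, at 1.52 for H2-Q6.

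Among the 30 combinations of the other 5 members and 6 fits, 0 passed the edgeR test and 2 had an unadjusted p under 0.05, H2-Q6 and H2-Q7 in endothelial cells. Of all genes tested, 24.5% had an unadjusted p under 0.05 in endothelial cells, 28.1% in fibroblasts, 18.3% in macrophages, 15.9% in T cells, 23.9% in B cells and 16.1% over all cells. DESeq2 called none of them either. The median log2 fold change of the 6 members was -0.21 in endothelial cells, 1.09 in fibroblasts, 0.45 in macrophages, 0.15 in T cells and -0.17 in B cells, where the median of all genes tested lay between -0.00573 and 0.0477.

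H2-D1, a classical chain that presents to CD8 T cells, passed the test as lower in disease in every fit but fibroblasts. In endothelial cells it had 4241 and 3445 CPM in control and 687, 969 and 729 in disease (log2 fold change -2.35 ± 0.18, edgeR adjusted p = 0.0010), and the change was -2.96 ± 0.15 in B cells. In fibroblasts H2-D1 had 1951 and 981 CPM in control and 196, 891 and 449 in disease, with a log2 fold change of -1.57 ± 0.64 that did not pass (edgeR adjusted p = 0.18). All disease libraries were below both controls there too, as for 27.2% of genes, while 21.2% of genes were above both. H2-K1, the other classical chain with a row, was called in endothelial cells (-1.53 ± 0.28, edgeR adjusted p = 0.022) and in no other fit. B2m, the light chain shared by classical and nonclassical molecules, was not called in any fit, with 3390 and 2508 against 2737, 4255 and 2387 in endothelial cells. H2-D1 has 55% GC in its first 300 bases and H2-K1 64.1%, against 66.3% for H2-Q4. The H2-D1 and H2-K1 calls were not repeated with the GC trend removed or with single libraries left out. Without disease replicate 5 no gene was called in T cells, so the H2-D1 call there was lost.

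The members made up a larger part of class I chain UMIs in disease, a share that also moves with H2-D1 and H2-K1. Of the UMIs of the 6 members, H2-D1 and H2-K1 together, the members held 23.1 and 24.6% in control and 42.0, 53.1 and 56.2% in disease over all cells. In T cells the share was 27.0 and 24.2% against 46, 61.1 and 67.5%, and in macrophages 16.4 and 16.4% against 32.7, 46 and 47.7%. Disease was above control without overlap in all 5 lineages, and no share over all genes was available for such a ratio. Over all cells H2-D1 had 3127 and 2301 CPM in control and 469, 800 and 574 in disease. H2-K1 had 2466 and 1612 in control and 982, 861 and 704 in disease. Over all cells the 6 members together had 1676 and 1280 CPM in control and 1051, 1884 and 1640 in disease, so the members' own sum overlapped between genotypes. Within the members, H2-Q4 went from 28.3 and 28.6% of their UMIs to 12.8, 16.2 and 12.4% in endothelial cells. The 5-prime chemistry gives 1 end per molecule, so these shares were not divided by transcript length.

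**Figure D4:**
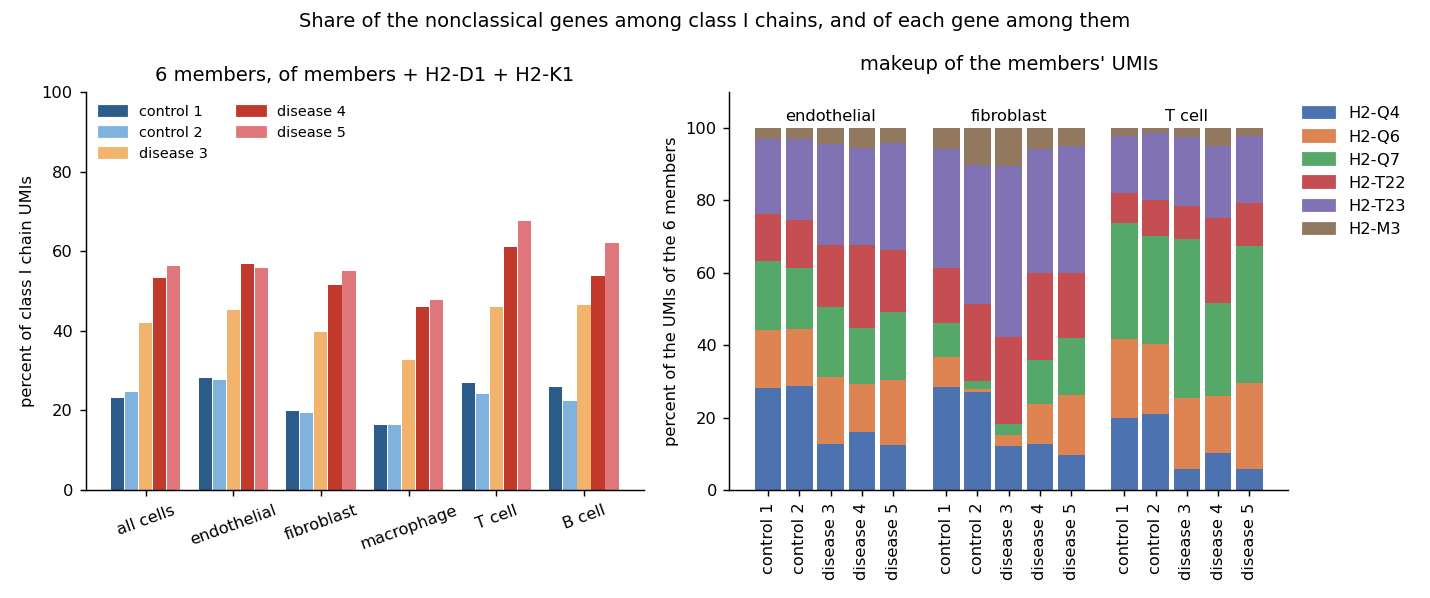
The left panel shows the percent of class I chain UMIs (members, H2-D1 and H2-K1) held by the 6 members, by fit and library, and the right panel the percent of the members' UMIs held by each gene in 3 lineages. Control bars on the left lie between 16.4 and 28.2%, and disease bars between 32.7 and 67.5%.

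The rest of the class I pathway was counted by lists. Of 13 genes for making and loading peptides (proteasome subunits, TAP transporter, tapasin, calreticulin and others), 1 passed in each fit, and it was Pdia3 each time. That is near the share of all genes called lower, 5.53 to 12.7% over the 6 fits. Pdia3, a disulfide isomerase of the loading complex, fell, with log2 fold changes of -1.99 over all cells, -1.92 in endothelial cells, -2.10 in fibroblasts, -1.70 in macrophages, -2.37 in T cells and -2.52 in B cells. Calls from these lists were not repeated with the GC trend removed or with single libraries left out. Without disease replicate 5 the Pdia3 call in T cells was lost, as no gene was called there. Of 6 regulators that act at class I promoters (Nlrc5, Rfx5, Rfxap, Rfxank, Irf1 and Irf2), 1 passed in fibroblasts and 0 in the other fits. Rfxap, a subunit of the RFX complex that binds the MHC promoter module, fell in fibroblasts (-1.60 ± 0.36, edgeR adjusted p = 0.044) and did not pass in the other 4 fits in which it was tested. There its log2 fold changes were -1.62 in T cells, -1.41 over all cells, -1.23 in endothelial cells and -1.13 in macrophages (edgeR adjusted p between 0.10 and 0.22), and in all 5 fits its scaled values were lower in every disease library than in both controls, as for 20.1 to 27.2% of genes. Nlrc5, the class I coactivator, had positive log2 fold changes in all 6 fits, from 0.45 in endothelial cells to 1.48 in fibroblasts, and did not pass in any. No gene passed among 14 other class I-like genes of the region, of which 0 to 4 could be tested, among 7 class I-like genes elsewhere (Cd1d1, Mr1, Fcgrt and others), or among 8 receptors and co-receptors. All 12 interferon-gamma reference genes had positive log2 fold changes over all cells, with a median of 0.99, and none passed. Of all 16025 genes tested 8343 were positive. For all 12, disease replicate 4 had the highest scaled value and control replicate 1 was above disease replicate 3.

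Whether the change of a member differed between lineages was tested as an interaction in 6 pairs of endothelial cells, fibroblasts, macrophages and T cells, with the library as a block. None of the 36 combinations passed in edgeR, 9 had an unadjusted p under 0.05, and DESeq2 called 0. Among all genes 0.185% passed for fibroblasts minus endothelial cells, 0.0147% for macrophages minus endothelial cells, 0.00752% for T minus endothelial cells, 0.0636% for macrophages minus fibroblasts, 0.0143% for T cells minus fibroblasts and 0.00873% for T cells minus macrophages. All 6 members had an unadjusted p under 0.05 for fibroblasts minus endothelial cells, where the change in fibroblasts was the more positive one. Of all genes 15.8% had such a p for this pair, and 14.1% had it with the more positive change in fibroblasts. The shares were 5.4% for macrophages minus endothelial cells, 6.13% for T minus endothelial cells, 5.83% for macrophages minus fibroblasts, 6.01% for T cells minus fibroblasts and 4.69% for T cells minus macrophages. The differences were 1.1 ± 0.36 for H2-Q4, 2.49 ± 1.14 for H2-Q6, 2.20 ± 1.00 for H2-Q7, 1.07 ± 0.30 for H2-T22, 1.02 ± 0.32 for H2-T23 and 0.55 ± 0.16 for H2-M3, with edgeR adjusted p between 0.19 and 0.31. Without disease replicate 3, 8 combinations passed, and some also passed without the low-count filter. The share of all genes passing in these settings was not counted. In the main fit, the change of H2-Q4 in endothelial cells was thus not shown to differ from that in fibroblasts.

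Within libraries, members were compared between cells with at least 2 UMIs of the 12 interferon-gamma reference genes and cells with 0, after thinning to 1000 UMIs. Both classes came from the same library and lineage, and cell states within a lineage were not held fixed. In fibroblasts H2-Q6 was higher in the cells with reference UMIs in 5 of 5 libraries, with a mean difference of 3.02 ± 1.39 (SD) in log2(CPM + 1). In disease replicate 5 it had 272 UMIs in 496 such cells against 24 UMIs in 1189 cells with none, and in control replicate 1 it had 124 UMIs in 676 cells against 38 in 1686. Control replicate 2 had 2 and 6 UMIs. H2-Q4 in fibroblasts was higher in 5 of 5 libraries by 1.87 ± 0.79, H2-T23 in 5 of 5 by 1.24 ± 0.91, H2-T22 in 5 of 5 by 0.98 ± 0.67, H2-Q7 in 4 of 5 by 1.93 ± 2.11 and H2-M3 in 3 of 5 by 0.35 ± 0.61. H2-D1 and H2-K1 were higher in 5 of 5 by 0.98 ± 0.80 and 1.28 ± 0.95.

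Endothelial cells gave mean differences of the same sign, smaller than in fibroblasts for all members but H2-M3. There H2-Q6 was higher by 0.74 ± 0.46, H2-Q7 by 0.62 ± 0.49, H2-Q4 by 0.54 ± 0.38, H2-T23 by 0.48 ± 0.20 and H2-T22 by 0.45 ± 0.25, each in 5 of 5 libraries, and H2-M3 by 0.39 ± 0.38 in 4 of 5. Macrophages had H2-T23 (0.85 ± 0.57), H2-T22 (0.80 ± 0.43) and H2-Q7 (0.89 ± 0.88) higher in 5 of 5 libraries, and H2-Q6 (0.93 ± 0.81), H2-M3 (0.35 ± 0.45) and H2-Q4 (0.25 ± 0.60) in 4 of 5. In T cells 3 libraries had enough cells, and the mean differences ran from 0.06 for H2-T23 to 0.35 for H2-T22 and H2-M3, with H2-Q6, H2-Q7 and H2-T22 higher in 3 of 3 and the other members in 2 of 3. In B cells, with 1 such library, H2-Q4 (0.89), H2-Q7 (0.37) and H2-T23 (0.33) were higher in cells with reference UMIs, and H2-Q6 (-0.01), H2-T22 (-0.21) and H2-M3 (-1.29) were lower. The cells are not replicates, so these are descriptions per library without a test.

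**Figure D5:**
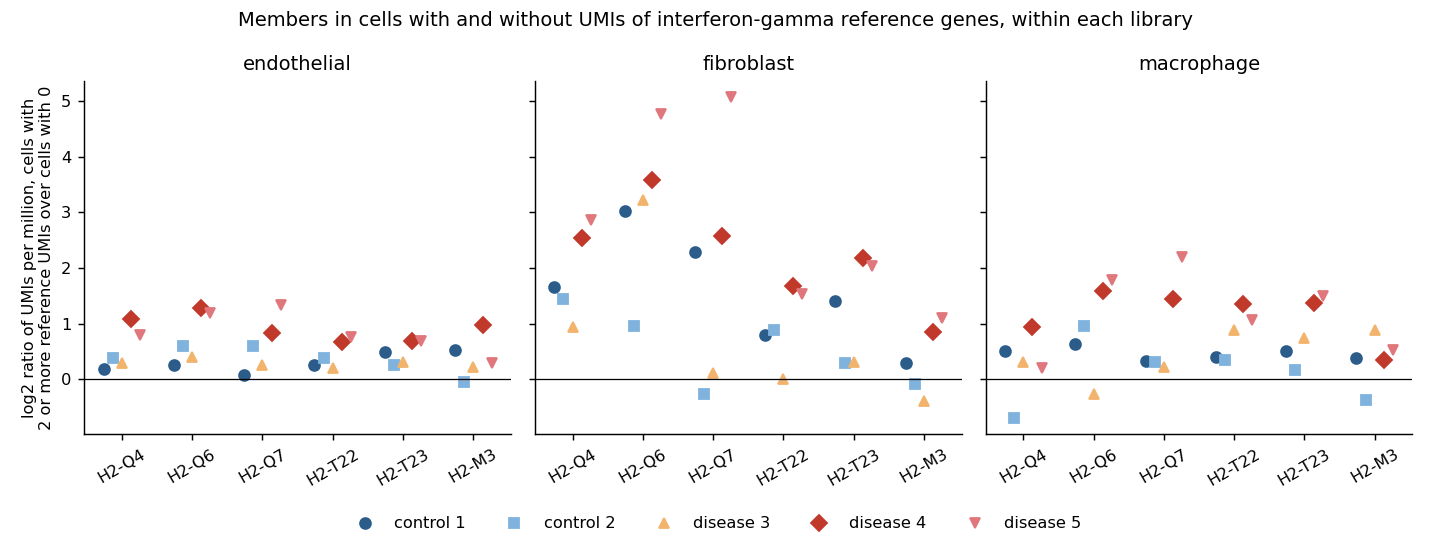
Each point is 1 library, with members on the x axis and on the y axis the log2 ratio of CPM (nothing added) in cells with 2 or more reference UMIs over cells with 0, for 3 lineages. Most points lie above 0, and the fibroblast points of H2-Q6 and H2-Q7 in disease replicate 5 are the highest.

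The genes whose levels were most like a member's were sought over 25 points, the 5 lineages in 5 libraries, among 5517 genes with a mean of at least 4 log2 CPM. The points share libraries and lineages, so Pearson's r is given as a description only. H2-Q6 and H2-Q7 were most like each other (r = 0.97), and they share sequence, followed by Tes and Spata13 (0.78 to 0.83). H2-T22 was most like Tap2 (0.95), a subunit of the peptide transporter, then Idnk (0.925) and Gbp4 (0.922), an interferon-induced guanylate-binding protein that is also on the reference list. H2-T23 was most like Tap1 (0.87), Psmb9 (0.855), an immunoproteasome subunit, and B2m (0.83). H2-M3 was most like Pomp (0.92), a proteasome assembly factor, Oas1a (0.91) and Ormdl2 (0.90). H2-Q4 was most like Pop5 (0.83), Pde12 (0.83) and Impdh1 (0.81), and its r with H2-D1 was 0.80, against 0.55 with H2-Q6 and 0.06 with H2-M3. H2-Q4 and H2-D1 share some sequence too.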

How the data were processed

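Single-cell RNA-seq of 5 libraries was analysed from UMI counts deposited by the authors as 10x matrices. Per the file headers they were made with Cell Ranger 3.1.0, and the submitters' processing notes name Cell Ranger 3, Seurat 3, mm10 and GRCh38. How reads with several matches were counted is not given in the sources used here. Cells with at least 500 UMIs, 200 genes and at most 10% mitochondrial UMIs were kept. The automatic Scrublet threshold (scanpy 1.11.5) marked 5 cells in control replicate 2, so the top-scoring 0.8% per 1000 cells were removed in each library, a choice made after that result. Cells were assigned to 11 lineages by 6 markers each (at least 2 detected, with a lead of 2 markers or 75% of marker UMIs), and counts were summed per library and lineage. Libraries shared 86 to 161 barcodes per pair. Genotypes were compared with edgeR 4.0.16 (quasi-likelihood, TMM, filterByExpr, R 4.3.3) with Benjamini-Hochberg adjustment over all genes tested. DESeq2 1.42.0 was an alternative. Shares of cells were compared by two-sided exact permutation tests after thinning to 1000 UMIs, with shallower cells left out. All members were named in every fit. From the other lists, genes past the threshold were named, and all classical chains. 1 gene of the promoter-regulator list is not reported here. Members and lists were chosen with earlier results of these data known. The fits were tested on simulated data.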

Additional observations from a re-analysis of the deposited data

How the results depend on the processing

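The lower H2-Q4 level in endothelial, T and B cells kept its direction and its call with DESeq2, RLE size factors, no low-count filter, up to 25% mitochondrial UMIs, doublets kept, the automatic Scrublet threshold (added after seeing the data) and at least 3 marker genes. With the GC trend removed, 0 members were called in each of these lineages. Members called when 1 library was left out ranged from 0 to 1 over all cells and in endothelial cells, macrophages, T cells and B cells, and from 0 to 8 for differences between lineages. Without the low-count filter, 1 member was called in macrophages (H2-Q4, edgeR adjusted p = 0.047) and 10 combinations differed between lineages. For differences between lineages, the share of all genes passing in these settings was not counted. The causes were not tested. Directions turned with the GC trend removed for H2-Q6 (0.13 in endothelial, 0.44 in T and 0.37 in B cells), H2-Q7 (0.14 in endothelial and 0.44 in B cells), H2-Q4 in fibroblasts (0.31), H2-T23 in T cells (-0.027) and H2-T22 in B cells (-0.028), and with RLE size factors for H2-T23 in endothelial cells (0.0043). None of these had been called. Leaving out 1 library also turned some uncalled log2 fold changes. They ranged from -0.032 to 0.49 for H2-Q6 and -0.079 to 0.64 for H2-Q7 over all cells. In endothelial cells they ranged from -0.17 to 0.35 for H2-T22, -0.18 to 0.13 for H2-T23 and -0.074 to 0.41 for H2-M3. H2-Q4 in fibroblasts ranged from -1.11 to 0.38 and H2-Q7 in macrophages from -0.025 to 1.13. In T cells the ranges were -0.51 to 0.46 for H2-Q6, -0.20 to 0.67 for H2-Q7 and -0.14 to 0.42 for H2-T23. In B cells they were -0.51 to 0.12 for H2-Q6, -0.55 to 0.067 for H2-Q7, -0.34 to 0.67 for H2-T22 and -0.28 to 0.13 for H2-T23. Counts over all genes moved by more than 1.5 times with DESeq2 (1655 against 1051 over all cells, 312 against 504 in B cells), with the GC trend removed (656 over all cells, 482 against 742 in macrophages, 254 against 542 in T cells), and without the low-count filter (1317 in macrophages, 1097 in T cells, 1044 in B cells). Without disease replicate 5 they fell to 123 over all cells, 801 against 1522 in endothelial cells, 927 against 1749 in fibroblasts, 205 in macrophages, 0 in T cells and 153 in B cells. No paired analysis was possible because the groups share no replicate numbers. With 2 control libraries, depth within lineages and 93 T cells in control replicate 2 limit the precision.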
